A study of Rattus norvegicus with 6 samples.

Results

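The transcripts described here are rat long non-coding RNAs (lncRNAs) whose array identifiers begin with MRAK. They were chosen by that prefix in the sequence identifier of each non-control probe, with no use of measured values, and 3588 of the 24684 non-control probes on the array carried it. Each MRAK probe stood for a transcript of its own, so 3588 probes gave 3588 transcripts, and each was printed as 3 spots. Of these, 1829 were tested, being well above background on all 3 files of at least 1 group, and 1759 were not tested.

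RNA came from H9c2 cells, a myoblast line grown from embryonic rat heart and used as a culture model of cardiac muscle. The control group held 3 samples at normal oxygen and the hypoxia/reoxygenation (H/R) group 3 samples. Cells of the H/R group were placed in medium without serum and glucose and kept for 1 h in gas of 1% oxygen, 5% carbon dioxide and 94% nitrogen, then returned to normal oxygen for 3 h. Before that, every culture had been kept in DMEM supplemented with HEPES, antibiotics, 10% fetal bovine serum and 4500 mg/L of glucose. The labels are silent on the medium used for control cells in the experiment itself, so low oxygen, reoxygenation and the loss of serum and glucose cannot be told apart. RNA depleted of ribosomal RNA was labelled with Cy3 by random priming and hybridised to 1-colour Agilent arrays. The comparison asks which of these transcripts differ between H/R and control cells.

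A lncRNA is an RNA longer than a small regulatory RNA that is not known to be translated. Some act in the nucleus on chromatin or on transcription of neighbouring genes, some bind proteins or small RNAs in the cytoplasm, and for most no function is known. Names of the MRAK form combine a mark for mouse-to-rat transfer with the number of a mouse full-length cDNA of the AK accession series, and the probe targets the rat counterpart of that cDNA. The files hold no genome position, strand, gene symbol or probe sequence for these transcripts, and 0 of the 3588 identifiers matched an entry of the RefSeq rat gene table, so overlap with coding genes and antisense position were not analysed here and no role is given for a single transcript.

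In each group, replicates 2 and 3 came from the same position of the slide and differed only in the scan. Over the 1829 tested MRAK probes these 2 files differed by a median of 0.02 on the log2 scale in the control group and by 0.02 in the H/R group, against 0.12 to 0.13 for the other pairs of files within a group. This is below the noise seen from array to array, so both files were treated as a single array and n is 2 arrays per group. The design text speaks of independent experiments, but no label links a file with a separate culture, and p-values therefore measure only how far these arrays spread, which can be technical. The 4 arrays shared 1 slide but no position on it, and an effect of position cannot be told apart from one of the group.

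Marker genes of the labelled cell type were measured in the same files. Of 8 skeletal myoblast markers on the array 6 were well above background in all 6 files, among them Myod1 and Myog, which encode transcription factors that commit cells to muscle, and Cdh15, which encodes the myoblast adhesion protein M-cadherin. Of 9 cardiac muscle markers 8 were detected in all files, and Ryr2, the cardiac calcium release channel gene, in 0. The protocol text also names mouse cortex as an RNA source, which conflicts with every other label. Of 4 neuron and astrocyte markers only Gfap was detected in all files, and Rbfox3, which encodes a neuronal nuclear protein, and Aqp4 were detected in 0. Of 6 macrophage and leukocyte markers 3 were detected in all files while Ptprc, Itgam and Adgre1 were detected in 0, and of 3 endothelial markers Pecam1 and Cdh5 were detected in 0. Summed signals of the cardiac list ranged from 12601 to 13143 units in control files and from 21019 to 21911 in H/R files, and those of the endothelial list from 114 to 123 and from 216 to 260.2. The skeletal myoblast list summed to 67940.2 to 79759 units in control and 53722 to 64107 in H/R, so these 3 lists did not overlap between the groups. The fibroblast list did not overlap either, with 217200 to 261279 units in control and 275878 to 287771 in H/R. Such separation is common on this array: in 64.1% of all tested probes, all H/R files lay on one side of all control files. The macrophage and leukocyte list (648 to 1015 and 734 to 842) and the neuron and astrocyte list (248 to 293 and 256 to 279) overlapped. A few bright genes carried these sums, so a sum does not show a shift of its whole list. Tnnt2 gave most of the cardiac sum (6799 to 7126 units in control, 15149 to 15314 in H/R), and Tek most of the endothelial sum. In the skeletal myoblast list Myod1 and Itga7 fell. Cdh15 was higher in every H/R file than in every control file, as were 37.4% of all tested probes, and did not pass (limma adjusted p = 0.188). Some markers detected in all files differed between the groups: Tnnt2, Myh6, Tek and Pdgfrb rose in H/R and Myod1, Itga7 and Nppb fell (limma adjusted p 0.00333 to 0.0338). Chrna1 was well above background only in the 3 H/R files, so the filter itself favoured a rise and its p-value is not used. The part of any change in cell state in the MRAK changes was not tested. In bulk RNA, fewer cells of a kind and less RNA per cell cannot be told apart. All 4 hypoxia-responsive genes fixed for checking, Ndrg1, Ddit4, Vegfa and Car9, rose in H/R (1.52-fold to 6.40-fold, limma adjusted p 0.00155 to 0.0173).

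MRAK probes were detected less often than coding probes in each file. In the control files 1728, 1815 and 1851 MRAK probes (replicates 1 to 3) were well above background, which is 48.2%, 50.6% and 51.6% of 3588. In the H/R files the numbers were 1815, 2249 and 2182, or 50.6%, 62.7% and 60.8%. H/R array 1 thus lay within the control range and both scans of H/R array 2 above it. Coding probes showed the same order, with 69.6% to 72.3% detected in control files, 71.9% on H/R array 1 and 78.6% to 80.0% on H/R array 2. A probe counted as detected in a file when more than 50% of its usable spots were flagged well above background, and 0 spots were saturated.

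**Figure D1:**
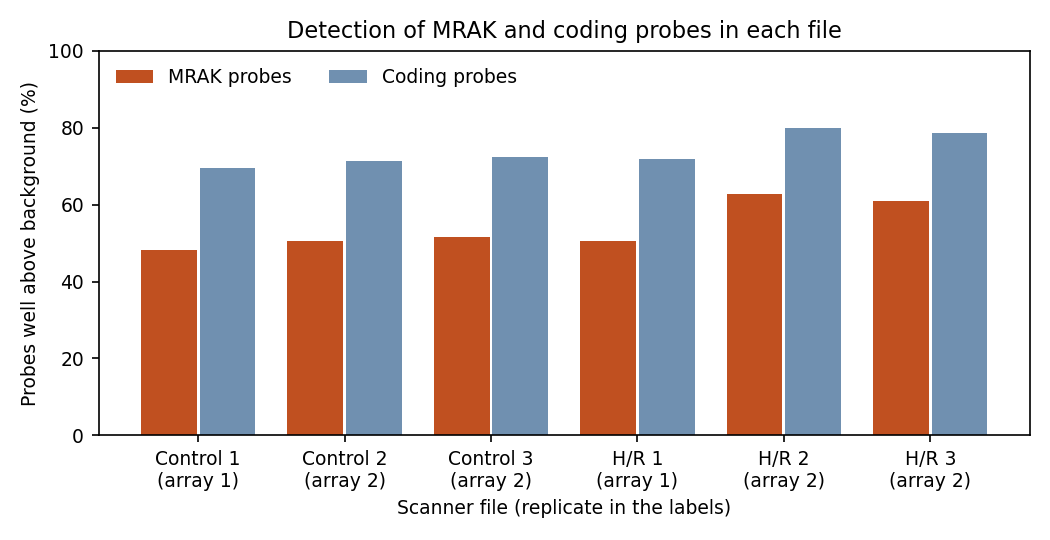
Bars show the percentage of 3588 MRAK probes and of 15323 coding probes that were well above background in each of the 6 scanner files. Control files and H/R array 1 lie between 48.2% and 51.6% for MRAK probes, and both scans of H/R array 2 lie at 60.8% and 62.7%.

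Detection was mostly all or nothing. A total of 1678 MRAK probes (46.8%) were well above background on 6 files and 1307 (36.4%) on 0 files. Another 256 were detected only in both scans of H/R array 2, and none of those was tested. Among the 1829 tested probes 1678 passed in both groups, 130 passed through H/R alone and 21 through control alone. Those 130 comprised 68 detected in 2 control files, 26 in 1 and 36 in 0. Only 1 of the 21 was detected in 0 H/R files, and the other 20 were detected in 2. Just inside the detection rule, the 151 probes that passed through 1 group had mean scaled signals of 8.83 to 40.4 units with a median of 19.2. Just outside it, 336 untested probes reached 2 files of a group, 330 of them in H/R, with mean signals of 4.91 to 23.3 units and a median of 12.8. Scaled signal means the processed intensity of a file divided by its own 75th percentile over probes and brought back to scanner units by one common factor.

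Both rises and falls were found among the MRAK transcripts after H/R, most of them of less than 2-fold. Of 1829 tested, 383 (20.9%) passed an adjusted p of 0.05 in limma with Benjamini-Hochberg adjustment over all probes tested, against 23.7% of all 15899 probes. Of these 208 were higher in H/R and 175 lower, which is 11.4% and 9.57% of the tested MRAK probes beside 14.8% and 8.87% of all probes. Among the 1678 probes detected in all 6 files, where the filter did not favour a group, 348 passed, 179 higher and 169 lower. A fit to such probes alone called 393 MRAK probes, 201 higher and 192 lower, and 3790 of all probes. No share over all probes detected in all 6 files is given, in total or by direction, so these counts are not set against the array. The remaining calls were 29 rises among probes that passed through H/R alone and 6 falls among those that passed through control alone, which the filter itself favours. The median change of the tested MRAK probes was 0.05 on the log2 scale, H/R minus control, against 0.07 for all probes tested. The number of calls fell whichever array was left out. Each such fit has 1 array in a group and fewer degrees of freedom, so the loss does not show dependence on a given array. Without H/R array 1, 107 MRAK probes passed, 61 higher and 46 lower, beside 6.86%, 4.64% and 2.23% of all probes. With H/R array 2 removed in both scans, 91 passed, 40 higher and 51 lower, beside 6.34%, 3.97% and 2.37%. Without control array 1, 201 passed, 101 higher and 100 lower, beside 12.8%, 8.21% and 4.62%. With control array 2 removed in both scans, 281 passed, 149 higher and 132 lower, beside 17%, 10.5% and 6.48%.

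The size of the changes was modest. Among the 383 called probes the median absolute change was 0.69 on the log2 scale and the smallest 0.36. The median rise was 1.58-fold, and the median fall took the signal to 0.606 of its control value. A change under 0.5 was found in 87 of the called probes, one from 0.5 to 1 in 222, one from 1 to 2 in 69 and one of 2 or more in 5. At least 2-fold were 74 MRAK probes (4.05% of those tested), beside 5.64% of all probes, with 42 higher and 32 lower, where all probes gave 3.83% and 1.81%. Some of the 74 entered the test only through the group where they are bright, and the fit to probes detected in all 6 files gave 61. The 5 of the last class, picked after their values were seen, were MRAK134679 and MRAK080105, which were higher in H/R, and MRAK159688, MRAK035284 and MRAK020214, which were lower. In 642 MRAK probes all H/R files lay above all control files and in 515 all lay below, together 63.3% of the tested probes beside 64.1% of all probes (37.4% above and 26.7% below). That share is far above the share called, and it is near the background of the array.

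**Figure D2:**
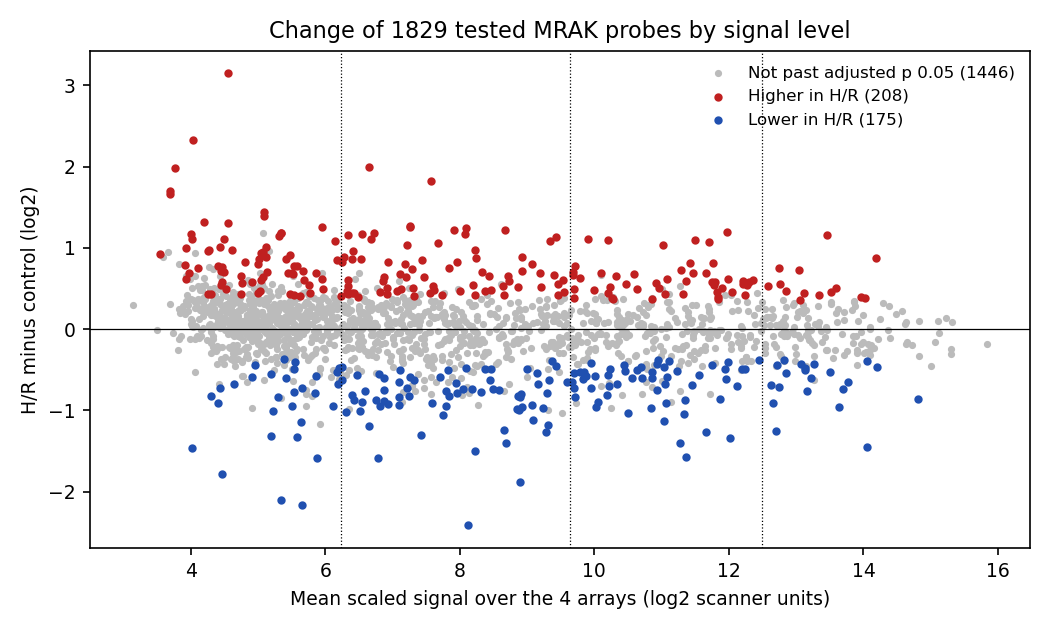
Each point is 1 of 1829 tested MRAK probes, with its mean scaled signal over 4 arrays (log2 scanner units) and its H/R minus control change (log2). Dotted lines mark the signal bands of all tested probes, red points are the 208 called higher and blue points the 175 called lower, and under this scaling 70 of the red points lie in band 1 and 14 in band 4. Band 1 holds every MRAK probe that passed through 1 group alone.

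Direction changed with the signal level. All 15899 tested probes were divided into 4 equal groups by mean scaled signal, with limits at 75.2, 796 and 5782 units, and 729, 588, 341 and 171 MRAK probes fell into signal bands 1 (lowest) to 4 (highest). Signals of different probes are not amounts of RNA, since each probe binds with its own strength, so the bands describe the range of measurement and not abundance. In band 1, 70 MRAK probes were called higher and 30 lower, 13.7% of that band beside 20.7% of all its probes (16.5% higher, 4.23% lower). In band 2 the counts were 75 and 69, 24.5% beside 28.7% (18.8% higher, 9.81% lower). In band 3 they were 49 and 55, 30.5% beside 28.6% (16.2% higher, 12.3% lower), and in band 4 they were 14 and 21, 20.5% beside 16.9% (7.75% higher, 9.13% lower). Rises thus made up 70.0% of the calls in band 1, 52.1% in band 2, 47.1% in band 3 and 40.0% in band 4. The median change over all tested MRAK probes of a band went the same way, from 0.12 in band 1 to 0.01, -0.06 and -0.04 in bands 2, 3 and 4. Each probe that passed through 1 group alone lay in band 1, among them 29 called rises and 6 called falls, which the filter favours. The fit to probes detected in all 6 files was also read by band, without values of all probes beside it. Rises there made up 65.8%, 50.9%, 47.4% and 35.7% of the MRAK calls in bands 1 to 4. The band 1 median was then 0.09. These shares are descriptions, and no test compared MRAK with other probes.

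Coding probes showed a tilt of the same direction. Rises made up 81.4%, 67.7%, 59.3% and 45.6% of the coding calls in bands 1 to 4. Of the coding probes in band 1, 20.5% were called higher and 4.67% lower, beside 9.60% and 4.12% of the MRAK probes in that band. In band 3, 17.7% of coding probes were higher and 12.1% lower, beside 14.4% and 16.1% of MRAK probes. Among the other classes of non-coding probes, RefSeq non-coding transcripts had 103 higher and 55 lower of 1054 tested, and probes with another MR prefix had 61 higher and 27 lower of 419. Ultraconserved elements had 15 higher and 16 lower of 242. Coding probes were mostly printed as 1 spot and MRAK probes as 3, and the median moderated SE in band 1 was 0.15 for coding and 0.13 for MRAK probes.

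**Figure D3:**
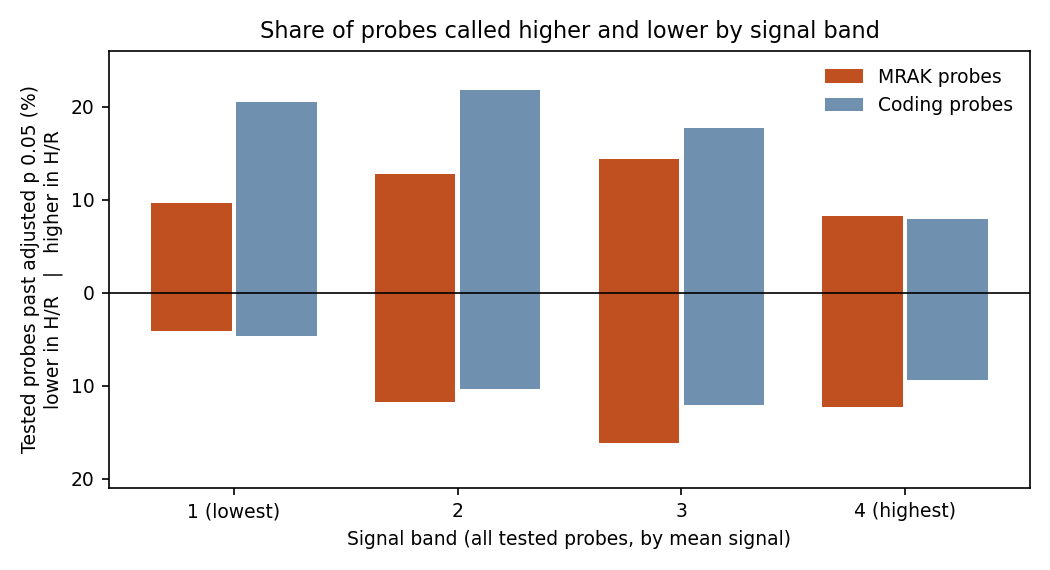
Bars above 0 give the percentage of tested probes called higher in H/R and bars below 0 the percentage called lower, by band of mean signal, for MRAK and coding probes. The MRAK bars for higher probes go from 9.60% through 12.8% and 14.4% to 8.19%, and those for lower probes from 4.12% to a peak of 16.1% in band 3, under scaling to the 75th percentile over probes.

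The tilt depended on the scaling between arrays. With quantile normalization 166 MRAK probes were higher and 216 lower, beside 12.5% and 10.7% of all probes (23.2% called), and rises were 44.6%, 42.3%, 43.4% and 44.7% of the calls in bands 1 to 4, with no such fall from low to high signal. In the authors' deposited table of log2 values the split was 167 to 217, beside 12.5% and 10.8% of its probes (23.3% called), with 45.6%, 42.4%, 42.3% and 44.7%. With each array scaled to its median, 133 were higher and 280 lower, beside 9.85% and 14.2% of all probes (24% called), and rises fell from 52.3% of the calls in band 1 to 9.76% in band 4. Scaling to the 75th percentile over spots instead of over probes, an alternative added after the values were seen, gave 166 higher and 208 lower, beside 12.3% and 10.2% of all probes (22.5% called). The median change of MRAK probes was -0.06, -0.06 and -0.08 under quantile, authors' and median scaling, each with the sign turned. The corresponding medians over all tested probes were 0.00, 0.00 and -0.06, and the MRAK median was the lower one in each of the 3. Calls of MRAK probes in the same direction under all 5 versions of the values numbered 286, 119 higher and 167 lower. Of all probes 17.5% met that rule, 8.78% higher and 8.72% lower. All 74 probes changed at least 2-fold were among them. Changes given for single transcripts below are relative to the 75th percentile over probes.

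**Figure D4:**
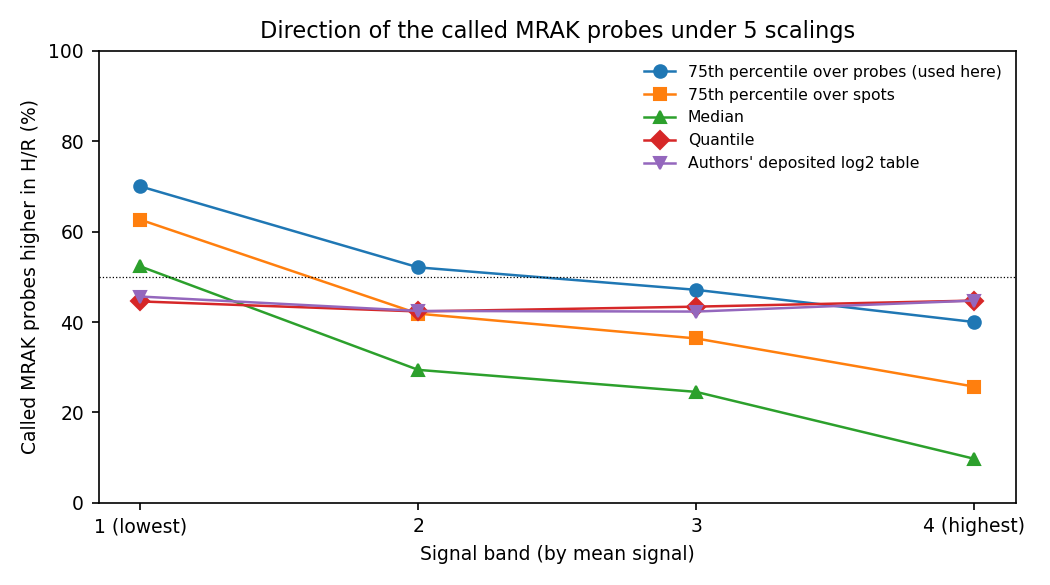
Lines show, for 5 versions of the values, which percentage of the called MRAK probes was higher in H/R in each band of mean signal. Under the 75th percentile over probes the share falls from 70.0% to 40.0%, and under quantile normalization and the authors' deposited table it stays between 42.3% and 45.6%.

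The H/R arrays differed from each other most at low signal. In band 1 the median MRAK probe of H/R array 1 lay 0.08 above the control mean on the log2 scale and that of H/R array 2 lay 0.17 above it. In bands 2 to 4 these medians were 0.03 and 0.01, -0.05 and -0.04, and -0.03 and -0.05. The 2 control arrays differed in a typical band 1 probe by 0.18 and the H/R arrays by 0.17, against 0.06 and 0.08 in band 4. Spots of a probe within a file had a median SD of 0.23 in band 1, 0.11 in band 2, 0.09 in band 3 and 0.08 in band 4. With H/R array 2 removed in both scans, 16 MRAK probes of band 1 were called higher and 10 lower, beside 5.13% and 1.81% of all probes of the band. Without H/R array 1 the counts were 26 and 14, beside 6.24% and 1.26%. The part of the higher detection on H/R array 2 in the rises of dim probes was not tested.

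The largest rises among probes detected in all 6 files reached 4.0-fold. MRAK036355 gave scaled signals of 47.5, 53.7 and 52.4 units in control replicates 1 to 3 and of 200.1, 202 and 200.1 in H/R replicates 1 to 3. The H/R values were nearly equal and stood far above every control value. Its change was 2.00 ± 0.10 on the log2 scale (moderated SE, n = 2 arrays per group, limma adjusted p = 0.00183), and a fit to the authors' deposited table gave 1.88. MRAK036265 rose 3.53-fold, from 97.9, 103 and 106 units to 369.6, 348 and 344 (change 1.82 ± 0.10, limma adjusted p = 0.00196). Its groups did not overlap either, and H/R array 1 was slightly the higher of the H/R arrays.

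The next rises came from dimmer probes or were smaller. MRAK164458 went from 18.8, 22.2 and 23.3 units to 52.9, 61.0 and 58.6 (2.72-fold). MRAK032411 went from 20.5, 22.1 and 21.2 to 55.8, 54.2 and 55.4 (2.62-fold). Both lay in band 1. For comparison, the dimmest signals scored well above background lay between 6.33 and 12.4 units depending on the file. MRAK032736 read 98.6, 99.5 and 96.7 units in control and 236, 236 and 238 in H/R, a rise of 1.27 ± 0.09 (limma adjusted p = 0.00296). The files of each group were close together. MRAK086854 rose 2.39-fold from 96.1, 100.4 and 103 units to 228, 244 and 246. MRAK044981 also rose 2.39-fold, from 36.9, 43.9 and 43.6 to 91.3, 103 and 99.4. MRAK085630 rose 2.37-fold, from 173, 181 and 179 to 409, 432 and 427. In all 8, each H/R file lay above each control file.

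The largest falls reached 5.32-fold and included brighter probes. MRAK159688 read 647, 639.8 and 637 units in control and 100.3, 147 and 144 in H/R, a change of -2.41 ± 0.19 (limma adjusted p = 0.00371). Its control values were nearly equal, while H/R array 1 was lower than H/R array 2, and the change was -2.14 with H/R array 2 alone and -2.68 with H/R array 1 alone. MRAK035284 fell 4.47-fold, from 106 units in each control file to 25.4, 22.2 and 22.3 (change -2.16 ± 0.11, limma adjusted p = 0.00183). Under normexp background correction its change turned to 0.24 and did not pass. No MRAK probe passed there, and the median change of the tested MRAK probes was 1.03 in band 1 and 0.53 in band 2. MRAK144357 fell 3.67-fold, from 811, 1018 and 1051 units to 249, 251 and 251. Here the control arrays differed and the H/R arrays were alike.

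MRAK050578 fell from 95.6, 112 and 106 units to 34.2, 34.3 and 33.2, a change of -1.59 ± 0.11 (limma adjusted p = 0.00278) that turned to 0.22 under normexp. MRAK143002 fell from 148, 249 and 244 units to 65.9, 63.3 and 60.8 (limma adjusted p = 0.0166). Its control arrays were far apart, so its SE of 0.25 was the largest of the 8 falls; its call was lost with H/R array 2 alone (adjusted p = 0.0717) and with H/R array 1 alone (adjusted p = 0.0813), and its change turned to 0.05 under normexp. MRAK014040 fell 2.82-fold, from 478, 517 and 532 units to 205, 149.7 and 157. The remaining falls were measured far above background. MRAK035610 went from 4781, 4290.4 and 4351 units to 1461, 1599 and 1594, a change of -1.57 ± 0.11 (limma adjusted p = 0.00282). MRAK018666 went from 29407, 26503 and 26879 units to 8488, 12498 and 12219, a change of -1.45 ± 0.20 (limma adjusted p = 0.0116). Its groups were well apart although H/R array 1 was lower than H/R array 2.

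**Figure D5:**
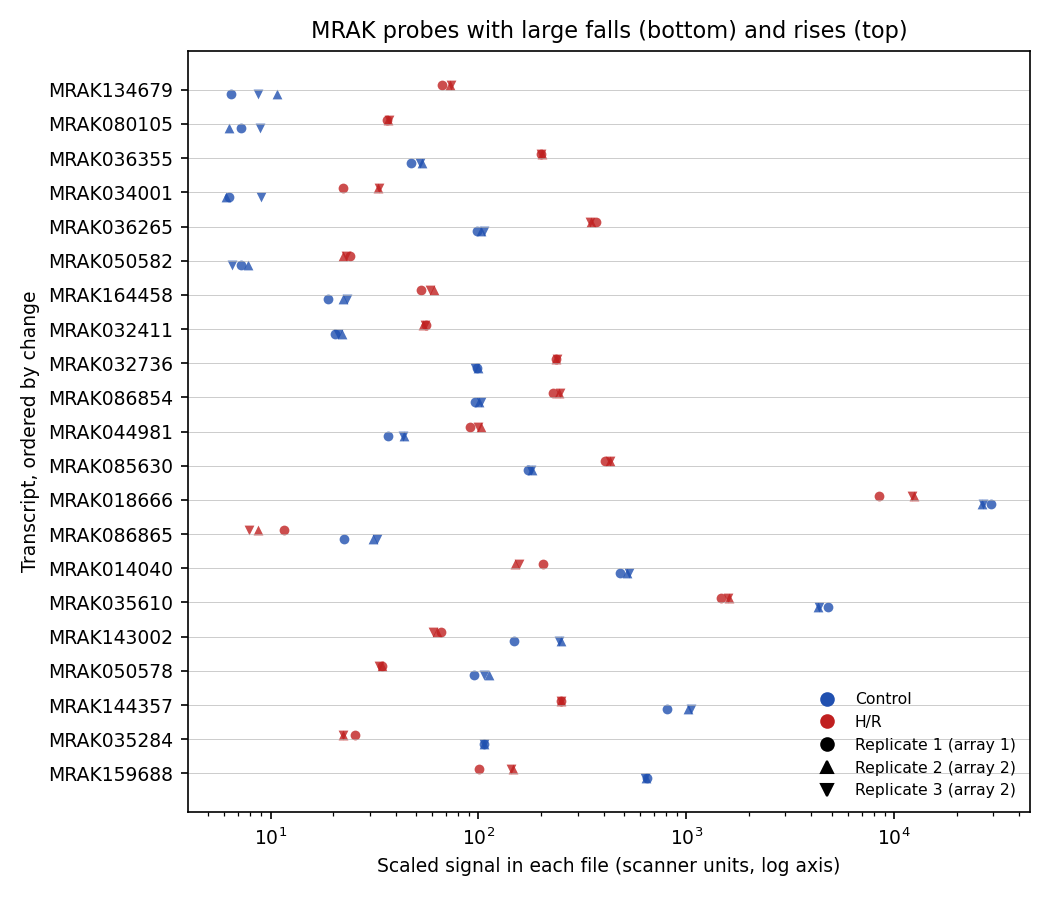
Points give the scaled signal (scanner units, log axis) of each file for the 8 largest falls and the 8 largest rises among MRAK probes detected in all 6 files, and for 5 probes dim in 1 group. In each of the 21 rows the blue control points and the red H/R points do not overlap, and replicates 2 and 3, 2 scans of 1 array, lie close together except where the group is dim.

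A few transcripts were detected in one group alone. There were 36 MRAK probes well above background in all 3 H/R files and in 0 control files, and 1 with the opposite pattern. Of the 36, 15 were called higher, beside 58.9% of all probes with that pattern. These probes entered the test through the group where they are bright, so neither that count nor their p-values from the filtered fit support a direction, and p-values below come from the fit without a filter on dim probes. Where the dim signal lies under the detection limit, the fold is given as a lower bound. It sets the bright group's mean against a limit for the dim group, which for each array is the dimmest signal flagged well above background, or the signal of the probe itself where that is larger. Of the 37, 35 gave a value over 1 by this rule, but in 17 of them the probe's own signal set the limit in all 3 dim files and the value is the fitted fold rather than a bound. In 6 probes the bound was at least 2 and the detection limit set it in at least 1 file. An undetected probe can lie above this limit, as MRAK084575 did with a control mean of 24.1 units. The bounds therefore hold only for the limit chosen and would be smaller with a higher one. MRAK134679 read 6.42, 10.8 and 8.73 units in control and 66.4, 73.3 and 73.5 in H/R. By this rule its lower bound was 6.18-fold higher in H/R (limma adjusted p = 0.0346 without the filter). MRAK080105 read 7.18, 6.29 and 8.91 in control and 36.3, 36.9 and 37.1 in H/R, with a lower bound of 3.28-fold (limma adjusted p = 0.0312 without the filter). Neither transcript had a control file near its H/R files.

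MRAK034001 had a lower bound of 2.43-fold, with 6.30, 6.13 and 9.02 units in control and 22.4, 32.8 and 33.1 in H/R, and did not pass without the filter (limma adjusted p = 0.0513). MRAK050582 had a lower bound of 2.09-fold, with 7.23, 7.81 and 6.50 units in control and 24.0, 22.3 and 23.0 in H/R (limma adjusted p = 0.0316 without the filter). Spots of MRAK080105, MRAK034001 and MRAK050582 within a file had median SDs of 0.49, 0.48 and 0.41 on the log2 scale. The one transcript detected in control alone was MRAK086865, with 22.6, 31.1 and 32.6 units in control and 11.6, 8.69 and 7.87 in H/R. Its own H/R signals lay above the dimmest detected ones, so no bound is given. Its fitted change was -1.46 ± 0.24, with -1.22 from H/R array 1 alone and -1.21 from control array 1 alone. It did not pass without the filter (limma adjusted p = 0.0851). In the filtered fit it passed (limma adjusted p = 0.0173) but not with H/R array 1 alone (adjusted p = 0.0726), and under normexp the change turned to 0.84. MRAK020214, detected in all control files and 2 H/R files, read 72.3, 97.0 and 96.8 units in control and 16.4, 23.6 and 22.6 in H/R, a change of -2.10 ± 0.23. It too entered through its bright group, and it did not pass without the filter (limma adjusted p = 0.0513).

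At high signal a few transcripts changed by more than 2-fold. In band 4, where the limit was 5782 units, 3 of 171 MRAK probes did so and passed, beside 2.36% of all probes of that band. Besides MRAK018666 these were MRAK013062, which rose, and MRAK166199, which fell. MRAK013062 went from 7652, 7467 and 7452 units to 17265, 16418 and 16599.9, a change of 1.16 ± 0.09 (2.23-fold, limma adjusted p = 0.00371). MRAK166199 went from 10606, 9906 and 9894 units to 4454, 4116 and 4160.2, a change of -1.26 ± 0.10 (2.39-fold lower, limma adjusted p = 0.00371). In band 3 the rise with the smallest adjusted p was that of MRAK138879, from 2653, 2630.3 and 2641 units to 6138, 5931 and 6019 (2.29-fold, limma adjusted p = 0.00324). In these 3 probes the files of a group differed by little beside the gap between the groups.

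The brightest MRAK probes did not pass. MRAK038044 read 57552, 67062 and 67965 units in control and 57589.9, 52880.0 and 52426 in H/R, with a change of -0.18 (95% interval -0.50 to 0.14, limma adjusted p = 0.331). One of its H/R files lay inside the control range. MRAK004284 read 36017, 42946 and 43290.0 units in control and 46869, 37591 and 37709.8 in H/R, and its groups overlapped (change 0.09, 95% interval -0.32 to 0.50, limma adjusted p = 0.696). MRAK156057 and MRAK147781 had every H/R file below every control file, with log2 changes of -0.25 and -0.30, and neither passed (limma adjusted p = 0.122 and 0.123). The intervals are those of single probes and are not adjusted for the number of probes.

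For some transcripts the arrays bound the change tightly. The 3 probes of band 4 with a fitted change nearest 0 were MRAK029436, MRAK048159 and MRAK052184. MRAK029436 read 17908, 17095 and 17234 units in control and 17253, 17606 and 17838 in H/R, with a 95% interval of -0.24 to 0.24 on the log2 scale. The intervals of MRAK048159 and MRAK052184 were -0.24 to 0.23 and -0.25 to 0.23. Of the 1446 tested MRAK probes that did not pass, 1307 had a 95% interval that lay within a 2-fold change either way, and 139 had one that reached it. Of those 139, 76 were in band 1, 44 in band 2, 18 in band 3 and 1 in band 4. Among all 12130 probes that did not pass, 11090 had an interval within 2-fold and 1040 had one that reached it. In bands 1 to 4 the latter numbered 535, 359, 125 and 21. Only 3 MRAK probes had a fitted change of at least 2-fold and did not pass, and these were picked after their values were seen. MRAK148606 read 16.9, 27.9 and 30.5 units in control and 41.5, 61.2 and 62.4 in H/R (limma adjusted p = 0.0588). MRAK080815 read 1394, 791 and 795 in control and 612, 423 and 437 in H/R (limma adjusted p = 0.0785). MRAK082938 read 104, 78.9 and 80.8 in control and 23.8, 68.7 and 69.8 in H/R (limma adjusted p = 0.165). In the last of these the H/R arrays disagreed by more than the groups did.

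Transcripts were also grouped by the number in their identifier, which the choice of members did not use. Of 717 MRAK probes numbered 2255 to 29887, 427 (59.6%) were tested, against 597 of 1309 (45.6%) numbered 30009 to 54555, 299 of 609 (49.1%) numbered 75655 to 90394 and 506 of 953 (53.1%) numbered 131636 to 172715. Of the tested probes 24.8%, 19.8%, 19.4% and 19.96% were called in these 4 blocks, beside 23.7% of all probes, with 60 higher and 46 lower, 62 and 56, 32 and 26, and 54 and 47. No test compared the blocks. The median scaled signals of the tested probes were 212, 86.7, 146 and 157 units, highest in the block with the largest share tested.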

How the data were processed

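The authors deposited 1 scanner file per sample with an intensity for each spot, extracted with Agilent Feature Extraction 11.0.1.1, which the submitters' processing notes and, per the file headers, the files name, for an array design annotated on rn4. The processed intensity is background-subtracted and detrended within the array, per the file headers, and not normalized between arrays. The authors also deposited log2 values of fewer probes, 2180 of them MRAK, made comparable between arrays by a method not stated here. Flags in the deposited files (another kind of value, 0 or 1) mark outliers and spots well above background.

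Here, control and outlier spots were left out, log2 intensities were averaged over a probe's spots, and each file's 75th percentile over the 24578 probes usable in every file was subtracted. Replicates 2 and 3 were averaged. Groups were compared with lmFit and eBayes in limma 3.58.1 (R 4.3.3), two-sided, with 2 residual degrees of freedom and 2.86 from the prior. The fit was also run on simulated data with independent noise, which cannot test for an effect of slide position or scaling. Files were read with Python 3.11.15, pandas 2.3.3 and figures drawn with matplotlib 3.10.9. The members, lists and tests were chosen with earlier results of these data known. Named are the 8 largest rises and 8 largest falls detected in all 6 files, up to 4 probes each way detected in 1 group, the 4 brightest, the smallest adjusted p each way per signal band, 3 near 0, and the few said to be picked later. Alternatives changed the scaling, background correction, filter, averaging, block, scan and arrays. normexp (offset 50) used median spot signals because the files hold no mean signal.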

Additional observations from a re-analysis of the deposited data

How the results depend on the processing

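Of 24 named transcripts that passed, all kept direction and call under the median, quantile and spot-percentile scalings and in the authors' deposited table. They also did so in the first scan alone and with the 6 files as separate samples. The 24 were picked in these same arrays, mostly for large changes or small adjusted p. A kept call after rescaling was therefore nearly given and is not separate evidence. Of the 24, 19 were detected in all 6 files and kept the call in the fit to such probes. The rest entered the test through the group where they are bright, so their calls in filtered fits do not support a direction. Of the 24, 18 kept the call without a filter on dim probes. The counts below are MRAK probes called, with those higher, those lower and the count of all probes called. With the 6 files as separate samples they were 925, 525, 400 and 8309, and with the scan as a block besides 827, 462, 365 and 7423. Without a filter, where 3580 MRAK probes of 24578 probes in all were tested, they were 50, 32, 18 and 594, with 47 at least 2-fold. Without scaling they were 58, 24, 34 and 744. With normexp background correction 0 MRAK probes passed in limma (0 higher, 0 lower, 0 at least 2-fold, 0 of all probes), with 152 MRAK probes at an unadjusted p under 0.05. There 322 of the 383 called MRAK probes kept their sign. All 208 rises did, but only 114 of the 175 falls and none of the 30 falls of signal band 1. Of the 24 named transcripts 20 kept it, while MRAK035284, MRAK050578, MRAK143002 and MRAK086865 turned to 0.24, 0.22, 0.046 and 0.84. Since the medians at low signal were positive there, a kept sign says little about a rise of a dim probe. The median change under normexp was 1.03 for MRAK probes of band 1, 0.53 for those of band 2 and 0.33 over all probes tested. The cause was not tested. Median scaling gave 133 higher and 280 lower.

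The median change of tested MRAK probes was -0.076 with median scaling, -0.063 with quantile normalization, -0.059 in the authors' deposited table, -0.027 without scaling, 0.0036 with the 75th percentile over spots, 0.69 with normexp, 0.026 for probes detected on all 6 files and 0.030 with H/R array 2 removed in both scans. It was 0.05 in the second scan alone, an alternative added after the values were seen, as was the percentile over spots.

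Leaving out 1 file at a time gave 107 to 390 MRAK probes called, 61 to 215 higher, 46 to 175 lower, 73 to 86 at least 2-fold and 1091 to 3778 of all probes, with medians of 0.04 to 0.06. With H/R array 2 removed in both scans, 91 were called, 40 higher and 51 lower, and 1008 of all probes. With control array 2 removed likewise, 281 were called, 107 at least 2-fold, and 2702 of all probes. Where 1 array was left in a group, its spread was assumed to be that of the other group.

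The labels number the replicates alike in both groups. With replicates 2 and 3 as 1 array only 2 numbers were left. Over 15899 probes the arrays' deviations correlated at 0.153 between the groups, and the samples share only a number. The fit with the replicate block called 411 MRAK probes, 213 higher and 198 lower, and 3886 of all probes. Precision is limited by how few arrays there are.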
